A study of Mus musculus with 12 samples.

Results

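The cytosolic ribosomal protein genes, 78 of the 11834 genes measured, were described in lactating mammary glands with and without Btn1a1. This gene encodes a butyrophilin, a protein of the membrane that wraps milk fat globules as the secretory cell releases them. Members were taken by name from the table, as symbols of the form Rpl or Rps with a number and at most 1 of the letters a, l or x, together with Rplp0, Rplp1, Rplp2 and Rpsa. They held 47 genes of the large subunit and 31 of the small subunit, and all 78 had a value in every library. The C57BL/6 mice were either Btn1a1-/- (KO, 7 libraries) or wild type (WT, 5 libraries), 1 library of polyA RNA per mouse, all in lactation 1. Glands came from day 10 in 5 KO and 3 WT mice. WT replicates 2 and 3 were from days 9 and 11, and KO replicates 3 and 4 from days 8 and 11. Wild-type females were bred in harems, the mutant line apart from them in heterozygous pairs, and 2 diets were in use without a record of which mouse had which. Genotype and breeding scheme therefore cannot be told apart, and the part of diet was not tested.

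The ribosome joins a small subunit, which decodes the messenger RNA, to a large subunit, which forms the peptide bond. Cells make the protein parts of both subunits in near-equal numbers, and most of these genes share an RNA that opens with a run of pyrimidines, the 5′ terminal oligopyrimidine (TOP) motif, through which the kinase mTORC1 and the binding protein LARP1 set how much of the RNA is translated. In the lactating gland, ribosomes on the endoplasmic reticulum translate very large amounts of casein and whey protein RNA.

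Values are log2 CPM (log2 counts scaled to library size) with nearly the same distribution in every library, as quantile normalization leaves them. Btn1a1 itself stood at 11.07 ± 0.09 log2 CPM in WT (SD, n = 5) and 5.63 ± 0.30 in KO (SD, n = 7), with no overlap. Low values fell on ladders of tied genes, whose spacing puts the depth roughly between 17.1 M and 30.4 M reads in WT and between 23.2 M and 34.7 M in KO. Luminal secretory markers were all measured (9 of 9) and averaged between 11.64 and 11.75 log2 CPM in WT and between 11.74 and 11.84 in KO, a difference of 0.07 (exact permutation p = 0.00758). In what follows a gene is called, and is said to have risen or fallen, where limma gave an adjusted p under 0.05 after Benjamini-Hochberg adjustment over the whole table. Of the luminal secretory markers 2 rose. All 14 skeletal muscle markers were measured and 0 were called. Their average ran from 1.98 to 4.64 log2 CPM in WT and from 2.46 to 6.39 in KO, a difference of 1.10 (exact permutation p = 0.130). Of 13 macrophage markers 5 rose (WT 2.77 to 3.18, KO 2.97 to 3.63), and of 10 basal and myoepithelial markers 6 rose (WT 4.83 to 5.27, KO 5.04 to 5.65). Over all genes 4.84% rose and 4.52% fell. Of 9 T cell markers 0 were measured, and of 9 B and plasma cell markers 3. In a fit with a term for the skeletal muscle score, 4 of the 78 members were called higher, beside 1.51% of all genes, and 0 lower, beside 0.837%. The median log2 change of the members was 0.02 in that fit and 0.07 without the term. Positive estimates numbered 48 with the term and 59 without it. The part of the luminal, macrophage and basal cell markers in the results was not tested. In whole glands a change in the share of a cell type and a change of RNA per cell cannot be told apart.

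Of the 78 ribosomal protein genes 5 rose in KO glands, and for most of the others the estimated change was small. The 5 were Rps9, Rplp2, Rpl14, Rps2 and Rps12, each raised 1.22-fold to 1.42-fold. In either direction 9.36% of all genes were called. The 5 called higher make up 6.41% of the members, where 4.84% of all genes were called higher. No member was called lower, where 4.52% of all genes were called lower. At an unadjusted p under 0.05, 12 members were higher (15.4%) and 2 lower (2.56%), beside 12.2% and 14.4% of all genes. The authors' deposited table also has these 5 genes higher and 0 members lower at the same threshold, beside 4.55% and 5.09% of all genes. For 4 members the libraries of both genotypes fell in separate ranges, all 4 with KO on the higher side. Among all genes 5.43% had separate ranges, 2.69% with KO higher and 2.74% with KO lower.

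The start of transcription of these genes is printed because it is the feature that most of the family shares, and because the 5 called genes can be set beside members that were not called. Each line runs 5′ to 3′ over 70 bases, 40 before the annotated RefSeq start and 30 from it, on build GRCm38.p6. Capitals mark the longest run of at least 7 pyrimidines that opens with C within 30 bases of the start. The first 5 are the called genes, and Rps6 and Rpl7a were not called.
Rps9: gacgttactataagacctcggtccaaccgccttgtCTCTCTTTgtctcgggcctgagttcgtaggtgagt
Rplp2: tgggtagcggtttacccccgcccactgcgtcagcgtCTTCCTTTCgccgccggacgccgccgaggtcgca
Rpl14: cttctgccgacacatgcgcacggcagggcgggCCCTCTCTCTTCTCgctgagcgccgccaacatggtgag
Rps12: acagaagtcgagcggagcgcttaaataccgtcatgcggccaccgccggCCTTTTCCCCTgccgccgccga
Rps2: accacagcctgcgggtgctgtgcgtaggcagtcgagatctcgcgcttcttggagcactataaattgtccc
Rps6: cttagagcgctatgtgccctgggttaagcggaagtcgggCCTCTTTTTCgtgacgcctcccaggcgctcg
Rpl7a: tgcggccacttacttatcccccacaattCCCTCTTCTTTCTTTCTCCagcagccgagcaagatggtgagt

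The printed stretches lie at chr7:3704001-3704070 (plus strand), chr7:141447611-141447680 (plus), chr9:120571477-120571546 (plus), chr10:23787180-23787249 (minus), chr17:24720023-24720092 (plus), chr4:86857338-86857407 (minus) and chr2:26910767-26910836 (plus). RefSeq promoters of 300 bases were found for 58 of the 78 members, 70 promoters in all. A pyrimidine run of this kind stood in 39 of these 70 (55.7%), beside 26.5% of all 32851 promoters, and by gene in 62.1% of the members and 30.8% of the genes of the table. Rps9, Rplp2, Rpl14 and Rps12 held one, as did Rps6 and Rpl7a, and Rps2 had none in this window around its annotated start. The annotated start can lie some bases from the one the gland uses. CCGGAAGT, searched on both strands as the core that ETS-family factors bind, stood in 17.1% of the members' promoters and in 3.89% of all promoters. Counted by gene, it stood in 20.7% of the 58 members and in 9.35% of the 8874 genes of the table with a promoter. Of the printed genes Rps6 held it, outside the printed stretch. TATAAA, the letters of the TATA box, on both strands, stood in 8.57% of the members' promoters and 13.6% of all promoters, but by gene in 10.3% of the members and 8.42% of the genes of the table. Of the printed genes Rps2 held it, after its RefSeq start and so not where a TATA box of that start would lie. In GENCODE M21 the gene opens at 24718116, well ahead of the printed stretch. The start used in the gland is not known. A match is a description of the letters and was not tied to the change in KO.

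Rps9, a small subunit protein that helps hold the decoding fidelity of the ribosome, lies on chromosome 7 from 3703993 to 3706897 (mm10, plus strand). Its 5 WT libraries read 7.04, 7.35, 7.00, 7.13 and 7.32 log2 CPM, and the KO libraries ran from 7.52 through a median of 7.68 to 7.78. Every KO library lay above every WT library. The log2 change was 0.48 (SE 0.08, adjusted p = 0.00357), or 1.40-fold, from 7.17 ± 0.16 (SD, n = 5) to 7.65 ± 0.09 (SD, n = 7).

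Rplp2 encodes P2, an acidic protein that pairs with P1 and docks on P0 to form the stalk that calls translation factors to the large subunit. The gene lies on chromosome 7 from 141447370 to 141451585 (plus strand). WT libraries read 5.75, 6.06, 5.79, 5.83 and 6.10 log2 CPM, and KO libraries ran from 6.18 through 6.42 to 6.55, again without overlap. The log2 change was 0.50 (SE 0.08, adjusted p = 0.00371), or 1.42-fold. The stalk partners did not pass the test. Rplp1 had a log2 change of 0.10 (95% interval -0.11 to 0.31, adjusted p = 0.552), and 2 of its 7 KO libraries exceeded the WT range. Rplp0 had -0.0073 (-0.17 to 0.16, adjusted p = 0.965), with WT libraries from 8.32 to 8.61 log2 CPM and KO libraries from 8.36 to 8.57. Within a library, Rplp2 stood below Rplp1 by 1.15 ± 0.13 log2 units in WT (SD, n = 5) and by 0.75 ± 0.09 in KO (SD, n = 7). This spacing, chosen after its values were seen, did not overlap between the groups, and it differed by 0.40 (exact two-sided permutation p = 0.00126, the smallest that 5 and 7 libraries allow). Rplp2 alone already had separate ranges in these libraries, so this p is not independent support.

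Rpl14, a large subunit protein (chromosome 9 from 120571444 to 120574654, plus strand), read 6.77, 6.83, 6.43, 6.57 and 6.63 log2 CPM in WT. In KO it ran from 6.93 through 7.08 to 7.18, with no overlap, and its log2 change was 0.41 (SE 0.08, adjusted p = 0.00641), or 1.33-fold. With day 10 libraries alone its change was 0.37 and it missed the threshold (adjusted p = 0.0519).

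Rps2, a small subunit protein near the messenger RNA entry channel (chromosome 17 from 24718116 to 24721929, plus strand), read 7.60, 7.83, 7.42, 7.42 and 7.49 in WT and ran from 7.79 through 7.92 to 8.01 in KO. WT replicate 2 overlapped the lowest KO library, and the other 6 KO libraries lay above all WT libraries. Its log2 change was 0.37 (SE 0.08, adjusted p = 0.0123), or 1.29-fold. The antisense gene Snhg9 overlaps Rps2, and the sources used here do not say whether reads were counted by strand.

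Rps12, a small subunit protein (chromosome 10 from 23785183 to 23787275, minus strand), read 7.35, 7.31, 7.17, 7.38 and 7.42 in WT and ran from 7.45 through 7.59 to 7.72 in KO. No KO library reached down to the WT range, and the log2 change was 0.28 (SE 0.07, adjusted p = 0.0237), or 1.22-fold. This call was lost under more of the alternatives than those of the other 4 genes. It was lost without WT replicate 1 (adjusted p = 0.0513), WT replicate 2 (0.0541) or WT replicate 3 (0.0629), with day 10 libraries alone (0.197) and with a term for the muscle markers in the fit (0.0900).

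**Figure D1:**
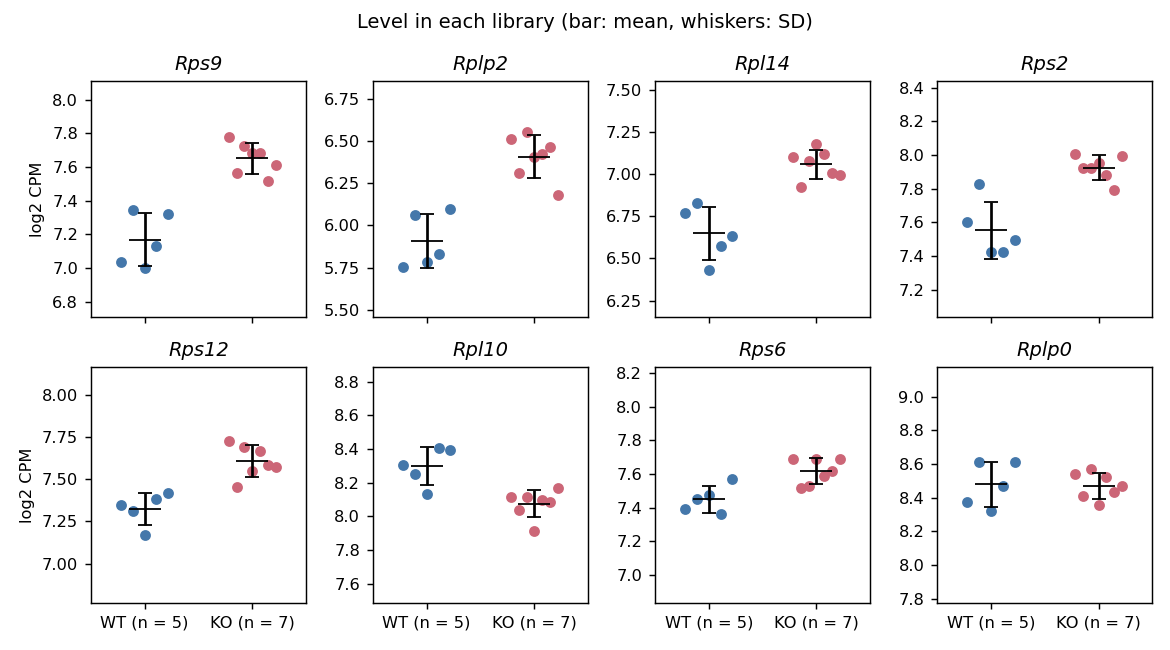
Log2 CPM of 8 ribosomal protein genes in each library, WT in blue (n = 5) and KO in red (n = 7), with the group mean (bar) and SD (whiskers); every panel spans the same log2 range. Rps9, Rplp2, Rpl14 and Rps12 have all KO libraries above all WT libraries, Rps2 overlaps in 1 WT library, and Rpl10, Rps6 and Rplp0 were not called.

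Of the 73 members that were not called, most had small estimated changes with narrow intervals, and Rpl3l had the largest estimate of any member. Of all 78 members, 72 (92.3%) had an absolute log2 change under 0.25, beside 66.5% of all genes. For 73 members (93.6%) the 95% interval of the change lay wholly within 0.5 log2 units of 0, beside 56.4% of all genes. The members also varied little between libraries, with a median SD of 0.12 in WT and 0.10 in KO, beside 0.14 and 0.16 for the 4818 other genes in the WT range of the members (Rpl3l apart). Of those 4818 genes, which are nearer in level than all genes, 75.8% had an absolute log2 change under 0.25. Their 95% interval lay within 0.5 log2 units of 0 in 76.7%. The median log2 change was 0.07 over the members and -0.03 over all genes, and 59 members had a positive estimate and 19 a negative one. By subunit the median was 0.06 for the 47 large subunit genes, of which 2 rose (4.26%), and 0.08 for the 31 small subunit genes, of which 3 rose (9.68%). Over all genes 4.84% rose. The difference between subunits was not tested.

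**Figure D2:**
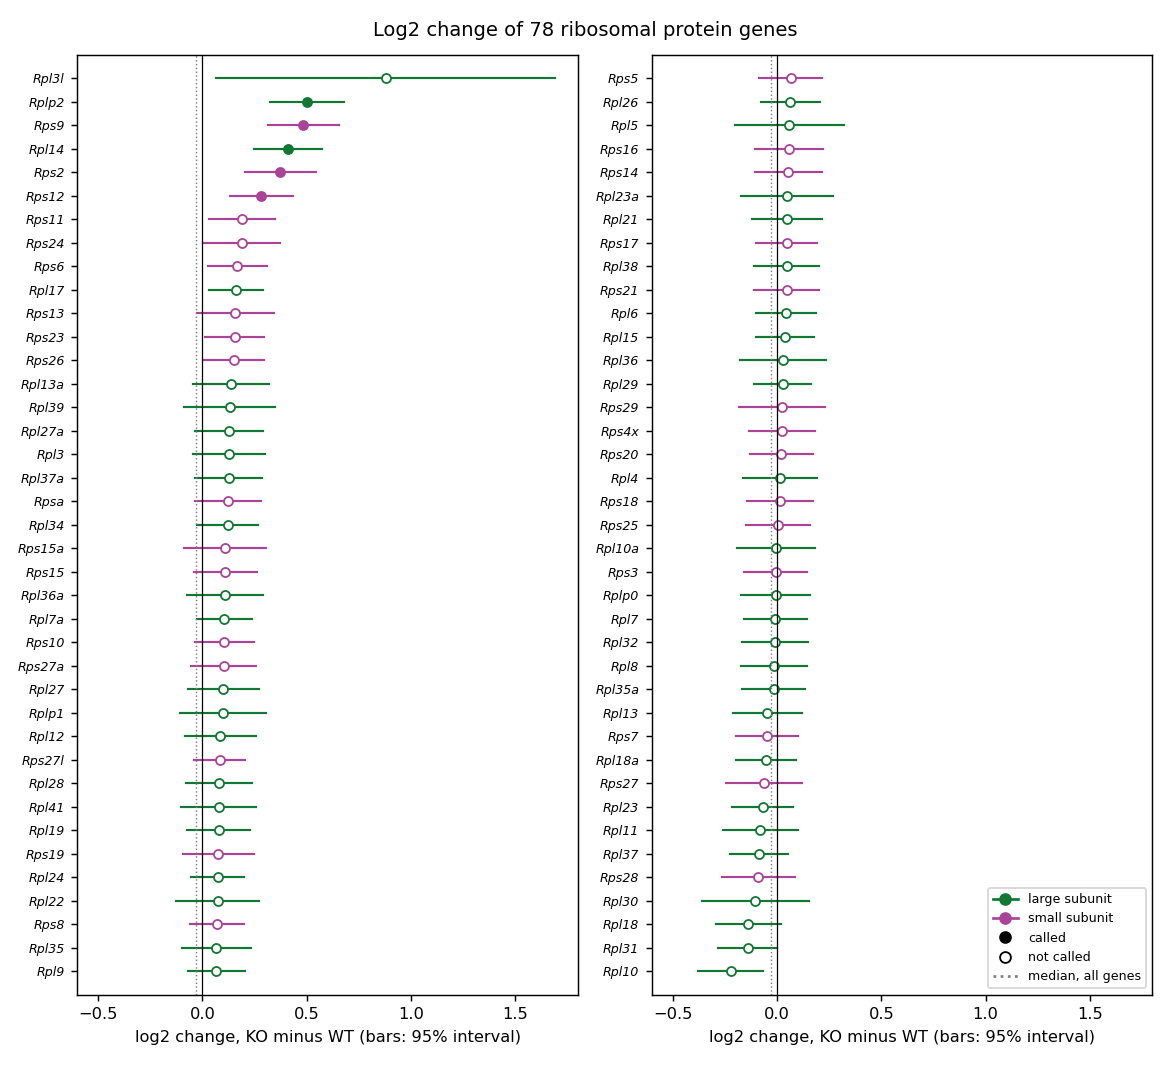
Log2 change (KO minus WT) of all 78 members with 95% intervals, ordered by size over 2 panels, large subunit in green and small subunit in purple, filled where called. The 5 filled points lie between 0.28 and 0.50, Rpl3l has the widest interval, and the dotted line is the median of all genes at -0.03.

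Rpl10, which sits near the peptidyl transferase centre and is among the last proteins to join the large subunit, was the member nearest to a call in the lower direction. Its WT libraries read 8.31, 8.25, 8.13, 8.41 and 8.39 log2 CPM, and the KO libraries ran from 7.91 through 8.10 to 8.17, 6 of 7 of them under all WT libraries. The log2 change was -0.22 (95% interval -0.38 to -0.07, adjusted p = 0.0688). Part of its reads can fall on Rpl10-ps3, a separately measured pseudogene by name that is identical to the Rpl10 transcript over 740 aligned bases and had a log2 change of -0.31 (adjusted p = 0.0767). With such copies summed into their members, an alternative chosen after seeing the data, Rpl10 fell by 0.25 on the log2 scale (adjusted p = 0.0339), and the 5 genes called higher kept their calls.

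Rpl17 (0.16, 95% interval 0.03 to 0.29, adjusted p = 0.110) and Rps6 (0.17, 0.03 to 0.31, adjusted p = 0.118) came next. Rps6 is the ribosomal protein that S6 kinase phosphorylates downstream of mTORC1. It read 7.39, 7.45, 7.47, 7.37 and 7.57 log2 CPM in WT and ran from 7.52 through 7.62 to 7.69 in KO, and 5 of these 7 exceeded the WT range. Part of its reads can fall on Rps6-ps4, which is identical to the Rps6 transcript over 750 aligned bases. This copy held 29.7% of the summed WT CPM of copy and member and had a log2 change of 0.04 (adjusted p = 0.835). Rpl5 and Rpl11 bind 5S ribosomal RNA and, when free of the ribosome, restrain Mdm2. Their log2 changes were 0.06 (-0.20 to 0.32) and -0.08 (-0.26 to 0.10). Rpsa, at the back of the small subunit head, had 0.12 (-0.04 to 0.28), and Rps27a, made as a fusion with ubiquitin, had 0.10 (-0.05 to 0.26). Rpl4, the most abundant member by log2 CPM, stood at 8.57 ± 0.15 in WT (SD, n = 5) and 8.58 ± 0.11 in KO (SD, n = 7). Rps4x, the X-linked copy of S4, had 0.02 (-0.14 to 0.18). Rpl39, a very small protein of the exit tunnel, had 0.13 (-0.09 to 0.35). Rpl7a had the lowest SD of any member in KO (0.03), and its change of 0.11 (-0.03 to 0.24) did not pass either.

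2 members are paralogs with a narrower known range of use. Rpl3l replaces Rpl3 in striated muscle, and it was by far the lowest member, at -0.93, -0.11, 0.84, 0.28 and 0.14 log2 CPM in WT and from -0.45 through 0.87 to 2.16 in KO. It had the largest SD of any member in both groups (0.65 and 0.79), and its log2 change of 0.88 (0.06 to 1.69, adjusted p = 0.156) did not pass. The average of the 14 muscle markers was lowest in WT replicate 1 (1.98), where Rpl3l was lowest, and highest in KO replicate 4 (6.39), where Rpl3l was highest. Within WT the order differed, with WT replicate 4 highest in muscle average (4.64) and WT replicate 3 highest in Rpl3l (0.84). In a fit with a term for the muscle score, the log2 change of Rpl3l was 0.22 (adjusted p = 0.586). Without KO replicate 6, whose muscle average was 2.46, Rpl3l passed (1.11, adjusted p = 0.0377). Whether muscle content accounts for the change of Rpl3l was not tested. Rpl3 itself had 0.13 (-0.04 to 0.30), at 7.84 ± 0.13 log2 CPM in WT (SD, n = 5). Rps27l, a p53-inducible copy of S27, had 0.08 (-0.04 to 0.21), and Rps27 had -0.06 (-0.25 to 0.12).

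Single libraries stood high or low for many members at once. The mean over members was 6.54, 6.65, 6.56, 6.64 and 6.75 log2 CPM in WT replicates 1 to 5, and 6.77, 6.62, 6.78, 6.79, 6.70, 6.64 and 6.66 in KO replicates 1 to 7. WT replicate 1 and WT replicate 3 were low, WT replicate 5 lay slightly under KO replicates 1, 3 and 4, and the groups overlapped. WT replicate 5 gave the highest of the 5 WT values for 44 of the 78 members and the lowest for 0, while WT replicate 1 gave the lowest for 37 and WT replicate 3 for 25. Among KO libraries, replicate 3 was highest for 29 members and replicate 4 for 27, and replicate 2 was lowest for 32. The mean of the groups was 6.63 ± 0.09 (SD, n = 5) and 6.71 ± 0.07 (SD, n = 7). As a share of the CPM sum, the members took between 0.936% and 1.08% in WT and between 0.977% and 1.08% in KO. The 2 KO libraries with the highest means came from days 8 and 11 (6.78 and 6.79), and KO replicate 1, from day 10, had 6.77. WT replicates 2 and 3, from days 9 and 11, had 6.65 and 6.56. The part of lactation day in these means was not tested. With day 10 libraries alone the median log2 change of the members was 0.02 and 42 of 78 estimates were positive. With those libraries alone, 5 KO and 3 WT, Rps9, Rplp2 and Rps2 rose, 3 of 78 members beside 1.39% of all genes, and 0 fell, beside 0.879%. With lactation day as a covariate in the fit of all libraries, the median was 0.06 and 59 of 78 estimates were positive. All 5 called members rose in that fit, beside 5.44% of all genes, and 0 fell, beside 5.30%.

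**Figure D3:**
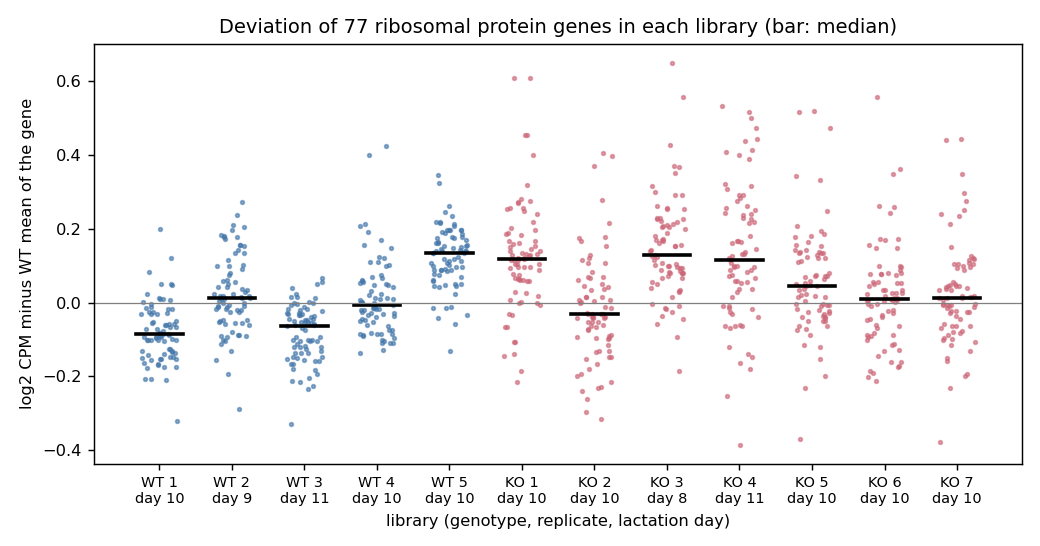
Deviation of 77 ribosomal protein genes (all but Rpl3l) from their WT mean in each library, in log2 CPM, 1 point per gene, with the median as a bar; WT in blue, KO in red, lactation day under each name. WT replicates 1 and 3 lie low, WT replicate 5 lies as high as KO replicates 1, 3 and 4, and KO replicate 2 lies under 0.

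Levels of different members were compared per kilobase of transcript, with the median length of the annotated coding transcripts of each gene (GENCODE M21). On this scale the WT median over members was 7.28 log2 CPM per kilobase, and 60 of 78 members lay within 1 log2 unit of it. Rpl41, the shortest ribosomal protein, was highest at 9.02, followed by Rps24 at 8.71. After Rpl3l (-0.23), Rpl5 was lowest at 3.05 and Rpl27 next at 3.83. Transcript lengths differ between annotated isoforms, so single values on this scale are uncertain. Read sharing with copies touches these levels too. Copies named for a member with the ending -ps were measured for 26 members, 27 copies in all, and their transcripts matched the member at a median of 99.8% of aligned bases. Of these copies 3 stood above their member in WT. Rpl27-ps3, identical to Rpl27 over 411 aligned bases, held 50.6 CPM where Rpl27 held 9.55. The split of reads between copy and member is uncertain. Of the called members, Rps9 and Rplp2 had no such copy among the measured genes. Rps12-ps3 rose with Rps12 (0.35, adjusted p = 0.0288), Rpl14-ps1 (0.11, adjusted p = 0.682) and Rps2-ps10 (0.25, adjusted p = 0.268) were not called, and these 3 copies held 10.7%, 9.44% and 3.41% of the summed WT CPM of copy and member.

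The genes sit on 19 chromosomes, 1 of them (Rps23) on chromosome 13, which carries Btn1a1. Annotated small nucleolar RNA genes lie inside 29 of the 78, among them Rplp2, Rps2 and Rps12.

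Some ribosome parts fall outside the naming rule. Such parts were listed together with paralogs and with Rps19bp1, a gene for a binding protein that is not a ribosome part. Of the 7 measured genes of this list 1 rose and 0 fell, with a median of 0.01. Over all genes 4.84% rose and 4.52% fell. Rpl22l1, a paralog of Rpl22, rose by 0.38 (SE 0.10, adjusted p = 0.0313), a call lost without any 1 of 6 libraries (WT replicates 1, 3, 4 and 5, KO replicates 1 and 2; up to 0.0814). Fau, the fusion that yields S30, had 0.12 (adjusted p = 0.464). Gnb2l1, which encodes the small subunit scaffold Rack1, had 0.01 (adjusted p = 0.931). Rps3a1, the S3a gene, was not on the list and was named after its values were seen. It had 0.04 (adjusted p = 0.757).

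Ribosome assembly takes many factors that are not part of the finished particle. Of 72 measured ribosome biogenesis genes 0 rose and 1 fell (1.39%), beside 4.84% and 4.52% of all genes. Their median was -0.04. At an unadjusted p under 0.05 there were 2 higher (2.78%) and 5 lower (6.94%), beside 12.2% and 14.4% of all genes. Imp3, of the small subunit processome, fell by 0.32 (SE 0.09, adjusted p = 0.0315), a call lost without any 1 of 7 libraries. Mrto4, Nhp2 and Rrp12 were not called (adjusted p of 0.0729, 0.0948 and 0.121). Of 15 genes of RNA polymerase I and its factors 1 rose and 1 fell (6.67% each), beside 4.84% and 4.52% of all genes. Rrn3, the factor that brings the polymerase to ribosomal DNA, rose by 0.43 (SE 0.08, adjusted p = 0.00727). Its WT libraries lay between 3.39 and 3.64 log2 CPM and its KO libraries between 3.69 and 4.08, without overlap. With day 10 libraries alone the call was lost (adjusted p = 0.0618). Taf1a, a subunit of the promoter selectivity factor, fell by 0.63 (SE 0.16, adjusted p = 0.0263). That call was lost without any 1 of 5 libraries, WT replicates 1 to 4 or KO replicate 1 (up to 0.0731). Taf1b and Polr1b were not called, with log2 changes of -0.33 and -0.29.

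Among translation factors both directions occurred. Of 39 genes listed as initiation factors 4 rose (10.3%) and 2 fell (5.13%), beside 4.84% and 4.52% of all genes. Eif5a was listed here by its name. The median of the list was 0.06. Eif3c, a core subunit of the factor that loads the small subunit, fell by 0.42 (SE 0.08, adjusted p = 0.00665), and its KO libraries (5.93 to 6.25 log2 CPM) lay under all WT libraries (6.31 to 6.67). With day 10 libraries alone the call was lost (adjusted p = 0.107). Eif2b3, of the exchange factor that recharges eIF2, fell by 0.46 (SE 0.12, adjusted p = 0.0249), which was lost without WT replicates 2, 4 or 5 (up to 0.0587). Eif5a, which helps ribosomes through proline-rich stretches, rose by 0.29 (SE 0.07, adjusted p = 0.0206), which was lost without WT replicates 1 or 4 (up to 0.0522). Eif4e2, Eif4h and Eif5 rose by 0.25, 0.21 and 0.23, with adjusted p between 0.0406 and 0.0480. Each lost its call without any 1 of at least 9 libraries. Of 15 genes listed for elongation and termination 2 rose (13.3%) and 0 fell, beside 4.84% and 4.52% of all genes. Beside factors, this list held the kinase gene Eef2k and Tpt1, Naca and Btf3. Eef1g, a subunit of the factor that recharges eEF1A, rose by 0.34 (SE 0.07, adjusted p = 0.0135), and no KO library overlapped the WT range. The call was lost with day 10 libraries alone (adjusted p = 0.0880) and with the muscle term (0.0621). Its partner Eef1b2 rose by 0.22 (SE 0.07, adjusted p = 0.0486), a call lost without any 1 of 10 libraries. Eef2k, the kinase that slows elongation factor 2, had -0.41 (adjusted p = 0.114), and Etf1, the release factor, had 0.16 (adjusted p = 0.140).

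The kinase mTORC1 and its regulators govern the translation of TOP messengers. Of 37 measured genes listed for this control 0 rose and 2 fell (5.41%), beside 4.84% and 4.52% of all genes. The list put the kinase together with inhibitors such as Ddit4 and with other genes such as Larp1 and Myc. Its counts and median therefore give no direction of mTORC1 activity. The median of the listed genes was -0.14 beside -0.03 for all genes. At an unadjusted p under 0.05 there were 0 higher and 13 lower (35.1%), beside 12.2% and 14.4% of all genes. Eif4ebp1, the repressor of cap-dependent translation that mTORC1 inactivates, fell by 0.37 (SE 0.11, adjusted p = 0.0464), and all KO libraries lay under all WT libraries. Mtor, the kinase, fell by 0.28 (SE 0.08, adjusted p = 0.0460). Both calls lie near the threshold and were lost without any 1 of 9 and 10 libraries. Larp1, which holds TOP messengers, had -0.19 (SE 0.06, adjusted p = 0.0735), with all 7 KO libraries under all WT libraries. Ddit4, an inhibitor of mTORC1, had -1.02 (SE 0.30, adjusted p = 0.0541; 0.0471 in the authors' deposited table), and Myc, a driver of ribosome synthesis, had 0.17 (adjusted p = 0.639). Of 14 genes of ribosome stress and quality control 1 rose and 1 fell (7.14% each), beside 4.84% and 4.52% of all genes. Mdm2, which the free 5S particle restrains and p53 induces, rose by 0.33 (SE 0.07, adjusted p = 0.0132), with all KO libraries above all WT libraries, and its call was lost with day 10 libraries alone (0.0998) and with the muscle term (0.0527). Gcn1l1, which senses stalled ribosomes, fell by 0.48 (SE 0.10, adjusted p = 0.00925), a call lost with day 10 libraries alone (0.0974). Zfp598 and Hbs1l, both of stalled-ribosome rescue, were not called (adjusted p of 0.0942 and 0.112).

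The proteins of the mitochondrial ribosome, encoded by other nuclear genes, are the nearest like family. Of 76 measured 0 rose and 2 fell (2.63%), beside 4.84% and 4.52% of all genes. Their median was -0.02. Mrpl30 fell by 0.25 (adjusted p = 0.0421) and Mrps31 by 0.34 (adjusted p = 0.0485), and these calls were lost without any 1 of 9 and 11 libraries. At an unadjusted p under 0.05 there were 3 higher (3.95%) and 4 lower (5.26%), beside 12.2% and 14.4% of all genes. Mrpl13 and Mrps5 were not called (adjusted p of 0.0573 and 0.0892). The difference between the mitochondrial and cytosolic families was not tested.

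**Figure D4:**
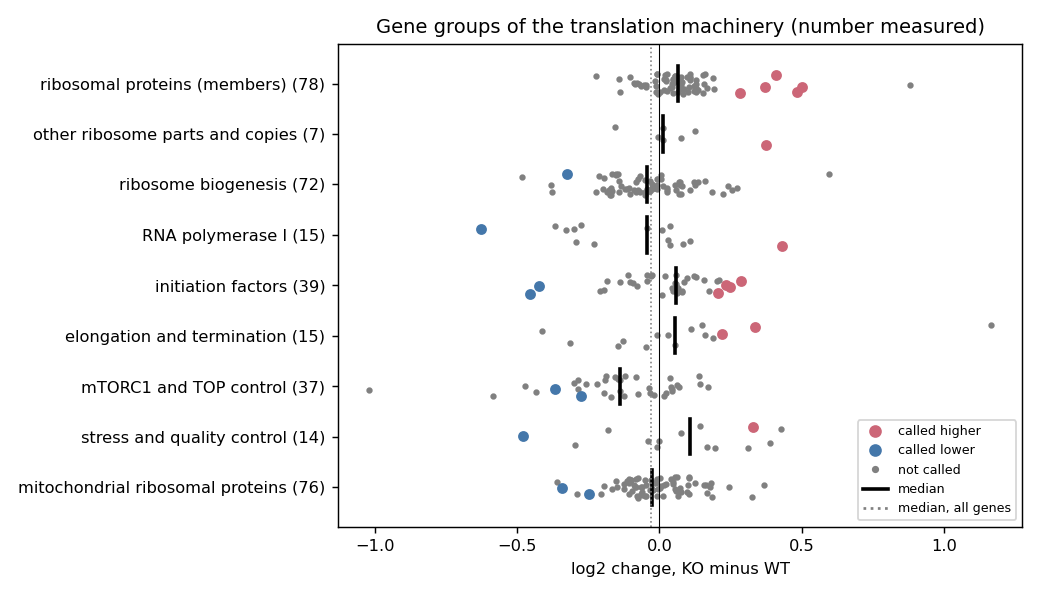
Log2 change (KO minus WT) of each measured gene in 9 groups, with called genes in red (higher) or blue (lower), the group median as a bar and the median of all genes as a dotted line. The ribosomal proteins crowd around 0.07 with 5 called genes above them, and the group of mTORC1 and TOP control has its median at -0.14.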

How the data were processed

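PolyA RNA from 12 mammary glands was sequenced, 1 library per mouse. Per the submitters' processing notes, upstream tools included STAR 2.5.2b and RSEM 1.3.0 and limma 3.34.5, after bcl2fastq 2.17 and Trimmomatic 0.33, with the builds mm10 and hg19 named without a role. The sources used here name no annotation and no gene filter. The authors deposited log2 CPM from voom for 11834 genes, and each library summed to between 988803 and 988808 CPM, as after quantile normalization. Such scaling fixes the set of values in each library, so a shift of the whole RNA pool cannot be seen. The authors' table also holds a log2 fold change, a signed linear fold change, a score (moderated t), and p-values with adjusted p-values, and 0 columns of the libraries were left unused. Library totals are not among the deposited values, and depth was estimated from the median spacing of tied low values, with between 34.8% and 54.3% of a library's steps within 10% of that median. These depths are rough, and no counting interval is given.

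The log2 values were fitted by genotype with limma 3.58.1 in R 4.3.3 (eBayes with trend and robust options), two-sided, with Benjamini-Hochberg adjustment over all genes. The procedure was tested on simulated data. p-values measure the spread between mice. Single values were compared by exact permutation of labels. Members, gene lists and alternatives were chosen with earlier results of these data known. Named members were the called ones (at most 12 a direction), the 3 nearest to a call, stalk, 5S, S6, ubiquitin-fusion and paralog members and those extreme in level or SD. Of each of the 8 pathway lists up to 4 genes of smallest adjusted p were named, with Fau, Larp1, Mtor and Myc, and further genes said to be called were named after their values were seen. 1 gene that the rule names is not reported here. Coordinates and transcripts come from GENCODE M21 (mm10), which matched 78 members, and promoters from RefSeq (GRCm38.p6). Python 3.11.15, Biopython 1.88 and matplotlib 3.10.9 were used for annotation, alignment and figures. Alternatives were other normalizations, filters, eBayes options, library weights, lactation day, day 10 alone, the replicate block, a muscle covariate, the authors' statistics, a stricter threshold and leaving out each library. Summed copies and centring on the members were chosen after seeing the data.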

Additional observations from a re-analysis of the deposited data

Results flagged for a closer look

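Each of the 78 members was screened in both groups for a library that stands far from the others by Dixon's ratio at the 95% level. Chance flags about 1 in 20 such screens, or 7.8 of the 156 made, and 9 were found. WT replicate 5 was the high library in 5 of them, with Rpl22 at 5.89 log2 CPM (next 5.65), Rpl31 at 6.85 (next 6.70), Rps25 at 6.94 (next 6.74), Rps27 at 6.59 (next 6.26) and Rps7 at 7.35 (next 7.19). WT replicate 4 was high in Rpl23 at 7.61 (next 7.39). In KO, replicate 3 was high in Rpl13 at 6.66 (next 6.43), replicate 4 was high in Rps15a at 7.16 (next 6.85), and replicate 2 was low in Rpl32 at 7.22 (next 7.42). None of these genes was called between the groups.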

How the results depend on the processing

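Rps9, Rplp2 and Rpl14 kept their calls without each library in turn, as did Rps2, with an adjusted p of at most 0.0350. When 1 library was left out, the count of members called higher ran from 4 to 6 and that of members called lower stayed at 0. Between 2.67% and 5.66% of all genes were called higher in these fits, and between 2.05% and 5.55% lower. The median change of the members ran from 0.047 to 0.093. The count over all genes ran from 559 to 1327, and that over the 8 pathway lists from 3 to 10 higher and from 2 to 10 lower, beside 9 and 9 with all libraries. It fell to 559, 644, 725, 696 and 724 without WT replicates 1, 2, 3 and 5 and KO replicate 1. In the pathway lists 5 of 18 called genes kept their call without each library. Day 10 libraries alone gave 268 genes in all, 3 members higher, and 1 pathway gene in each direction, with 8 members without overlap, beside 15% of all genes. The muscle covariate gave 278 genes, with 1 pathway gene higher and 2 lower. At an adjusted p under 0.01 there were 249 genes, 1.28% of all genes higher and 0.828% lower. At that threshold 3 members were higher, with 1 pathway gene higher and 2 lower. A mean of at least 4 log2 CPM left 534 genes and 4 pathway genes lower, and eBayes without its options left 4 pathway genes higher.

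With copies summed, 5 members were higher and 1 lower (Rpl10), beside 4.86% and 4.58% of the genes in that fit. Centring each library on the mean of the members moved the median of all genes from -0.03 to -0.11, with 2.76% of genes higher and 6.63% lower, and that of the members to -0.014. It left 3 members higher (Rps9, Rplp2, Rpl14), 1 lower (Rpl10, adjusted p = 0.0454) and 1 pathway gene higher. Same-numbered libraries correlated between -0.17 and 0.21 over 5 pairs, and WT replicate 4 alone correlated best with its own number. So few pairs cannot show whether the numbers pair mice. The replicate block gave 1083 genes, 4 members higher (all but Rps12, adjusted p = 0.0853) and 4 pathway genes higher. In that fit 4.93% of all genes were higher and 4.22% lower.

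Members near 0 changed sign. Rplp0 had 0.033 after cyclic loess, 0.012 with library weights and 0.0016 with the replicate block, and -0.046 to 0.027 with 1 library left out. With day 10 alone Rplp1 had -0.0057, Rpl5 -0.18, Rpl39 -0.044, Rps4x -0.0032 and Rpl4 -0.0085. With the muscle covariate Rps4x had -0.050 and Rpl4 -0.017. After centring on the members Rpl5 had -0.020, Rps4x -0.058 and Rpl4 -0.065. With 1 library left out Rpl5 ran from -0.013 to 0.17, Rps4x from -0.023 to 0.053, Rpl4 from -0.020 to 0.068 and Rps27 from -0.097 to 0.017. None of these passed the test, and the cause was not tested. The median SE of a member's log2 change was 0.07, which with the number of libraries limits what could be called.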
